A study of Rattus norvegicus with 6 samples.

Results

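Hemoglobin transcripts and a few other transcripts typical of red cells were followed in brain tissue of rats with subarachnoid hemorrhage (SAH), bleeding into the space around the brain, as a trace of blood in the tissue. Gene models were taken if their symbol begins with Hba, Hbb, Hbe or Hbq, if their description holds the words hemoglobin subunit, or if they are Alas2 or Slc4a1. This gave 10 of the 22396 gene models in the deposited tables, and all 10 passed the expression filter that left 17096 genes to test. Hemoglobin chains make up 7 of the 10. Alas2 and Slc4a1 are the other red cell genes, and Hbegf came in through its letters alone, since it encodes a growth factor that binds heparin and no globin. Its values are therefore given apart.

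The RNA came from the basal temporal lobe of adult male Sprague-Dawley rats taken 24 h post-SAH, and each of the 3 rats per group gave 1 library. Every rat of both groups had received about 0.20 ml of blood drawn from the femoral artery into the cisterna magna. How much of this blood remained in the sampled tissue is not given. The SAH + 6-gingerol group then got 6-gingerol, a phenol of ginger, at 10 mg/kg intraperitoneally 1 h post-SAH, and the SAH + PBS group got phosphate buffered saline instead. The table headers call the SAH + 6-gingerol libraries Control, whereas the sample titles give the treatment, which was followed here. No sham rat was analysed here, and the methods for the RNA do not say whether the tissue was rinsed or perfused before extraction.

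Hemoglobin carries oxygen as a tetramer of alpha and beta chains, each holding a heme group. Red cell precursors make it in the bone marrow and then lose their nucleus, and young circulating red cells, the reticulocytes, still hold mRNA, most of it for globins. In rodents low levels of alpha and beta globin mRNA have also been described in some neurons and glia. Reads of bulk tissue do not tell these sources apart, nor fewer cells of a type from less RNA per cell.

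The alpha chain models of the files lie side by side on the minus strand of chromosome 10 of Rnor_6.0. Both of the abundant ones carry the symbol Hba-a2. The one described as hemoglobin alpha 1 (15602794 to 15603649) is called the alpha 1 model here, and the one described as hemoglobin alpha 2 (15589364 to 15590220) the alpha 2 model. Hba-a3 (15577249 to 15577977) and the theta chain AC096051.1 (15600220 to 15600858) belong to the same cluster. Hbb, the main adult beta chain, lies on the minus strand of chromosome 1 (168971274 to 168972725), and the beta chain models LOC100134871 and LOC103694855 on an unplaced scaffold. Alas2 lies on chromosome X (23167696 to 23187341), Slc4a1 on chromosome 10 (90296141 to 90312386) and Hbegf on chromosome 18 (29329764 to 29340403), all on the minus strand. Near-identical globin copies may split reads between them, because the counting of shared reads is not given in the sources used here, so a level of a single copy is less certain than the sum.

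The stretch of 150 bases before the start of the globin genes is given because it shows how alike the alpha copies are. Whether it bears on the levels across rats was not tested. RefSeq (build GRCr8) held such a stretch for 7 of the 10 members, matched by gene number, and 4 of them are printed. Capitals mark each match, on either strand, to CCAAT (the CCAAT box), to CACCC (bound by factors of the KLF family), to TATAAA or its variant ATAAAA (the TATA box) and to TGATAA or its variant AGATAA (letter forms of the GATA site), and no matches overlapped in these stretches. Positions are those of GRCr8, all on the minus strand, at chr10:15842581-15842730 for Hba-a1, chr10:15829139-15829288 for Hba-a2, chr10:15816944-15817093 for Hba-a3 and chr1:167663722-167663871 for Hbb. Hba-a1 of RefSeq is the alpha 1 model of the files and Hba-a2 the alpha 2 model.
Hba-a1: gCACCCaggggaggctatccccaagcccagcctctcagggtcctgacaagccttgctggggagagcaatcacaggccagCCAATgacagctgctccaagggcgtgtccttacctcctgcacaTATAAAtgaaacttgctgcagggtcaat
Hba-a2: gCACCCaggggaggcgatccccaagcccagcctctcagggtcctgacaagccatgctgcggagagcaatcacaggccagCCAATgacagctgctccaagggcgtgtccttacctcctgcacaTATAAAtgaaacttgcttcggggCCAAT
Hba-a3: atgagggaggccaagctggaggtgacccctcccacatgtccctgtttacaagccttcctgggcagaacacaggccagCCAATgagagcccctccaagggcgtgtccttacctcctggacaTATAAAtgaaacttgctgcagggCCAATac
Hbb: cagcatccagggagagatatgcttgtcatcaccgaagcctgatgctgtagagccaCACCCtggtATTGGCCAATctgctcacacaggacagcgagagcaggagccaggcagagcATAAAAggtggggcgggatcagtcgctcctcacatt

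The alpha 1 and alpha 2 stretches were identical at 144 of 150 bases (96.0%), while Hba-a3 shared 73.6% with the first and 73.8% with the second over a gapped alignment. Hbb shared 50.6% with Hba-a1, and Alas2 43.7% with Hbb. All 3 alpha stretches held TATAAA and CCAAT. Hbb held ATAAAA once and CACCC once, and the letters CCAAT on each strand. Over 33469 rat promoters cut to the same length, CCAAT matched in 23.5%, CACCC in 35.2%, TATAAA in 8.0% and ATAAAA in 11.2%. TGATAA (4.51% of promoters) matched in none of the 7 stretches and AGATAA (5.96%) matched in Alas2 alone. A match is a description of the letters and does not show binding.

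Total counts per library ran from 62762808 to 66761380, and the values below are CPM unless given as FPKM. CPM are counts put on a common library size with TMM, a normalization that corrects for library composition. FPKM are counts divided by the plain library total, without TMM, and by gene length. Defining brain markers were well counted, with a summed 4425 to 11126 CPM over 11 neuron markers. One library, SAH + PBS replicate 2, stood apart. It had the highest value of the 6 rats in 36.1% of the genes tested, and in it 11.7% of genes exceeded the mean of SAH + PBS replicates 1 and 3 more than 2-fold. The members and the medians of the lists are therefore given with and without it.

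Hemoglobin transcripts were abundant in this tissue. The alpha 1 model was number 66 of the 22396 gene models by median FPKM, Hbb number 158 and the alpha 2 model number 239. On the FPKM scale the alpha 1 model was the highest member in 6 of 6 rats (median 520 FPKM). It was followed by Hbb (291 FPKM) and the alpha 2 model (230 FPKM), whose order held in 5 of 6 rats, so these neighbours were not separated. LOC103694855 (34.0 FPKM) and LOC100134871 (25.2 FPKM) came next and exchanged places in 1 rat. Hba-a3 (15.5 FPKM) was below LOC100134871 in 6 of 6 rats. It was above Hbegf (median 2.79 FPKM) in 5 of 6 rats, since Hbegf had 15.4 FPKM in SAH + PBS replicate 1, against 8.42 FPKM of Hba-a3, and 35.6 FPKM in SAH + PBS replicate 2. Lower than all of these by median were Alas2 (1.51 FPKM), AC096051.1 (0.337 FPKM) and Slc4a1 (0.119 FPKM).

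Summed over the 7 hemoglobin models, the CPM were 1036, 653 and 706 in SAH + 6-gingerol replicates 1, 2 and 3 and 349.6, 1471 and 539 in SAH + PBS replicates 1, 2 and 3. The highest and the lowest rat were thus both SAH + PBS rats, and the SAH + 6-gingerol rats lay between them. The group means were 798 ± 207 CPM under 6-gingerol against 787 ± 600.5 CPM under PBS (SD, n = 3 each), a ratio of 1.01. Within the SAH + PBS group the sum varied 4.21-fold, against 1.59-fold within the SAH + 6-gingerol group. Without SAH + PBS replicate 2 the PBS mean was 444 CPM and the ratio of 6-gingerol to PBS was 1.80. As a share of all counts, hemoglobin took 0.0362% (95% Wilson interval 0.0358% to 0.0367%) in SAH + PBS replicate 1, the lowest rat. In SAH + PBS replicate 2, the highest, it took 0.158% (0.157% to 0.159%). These intervals cover counting error only, and the distance between the rats is far larger than counting error.

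**Figure D1:**
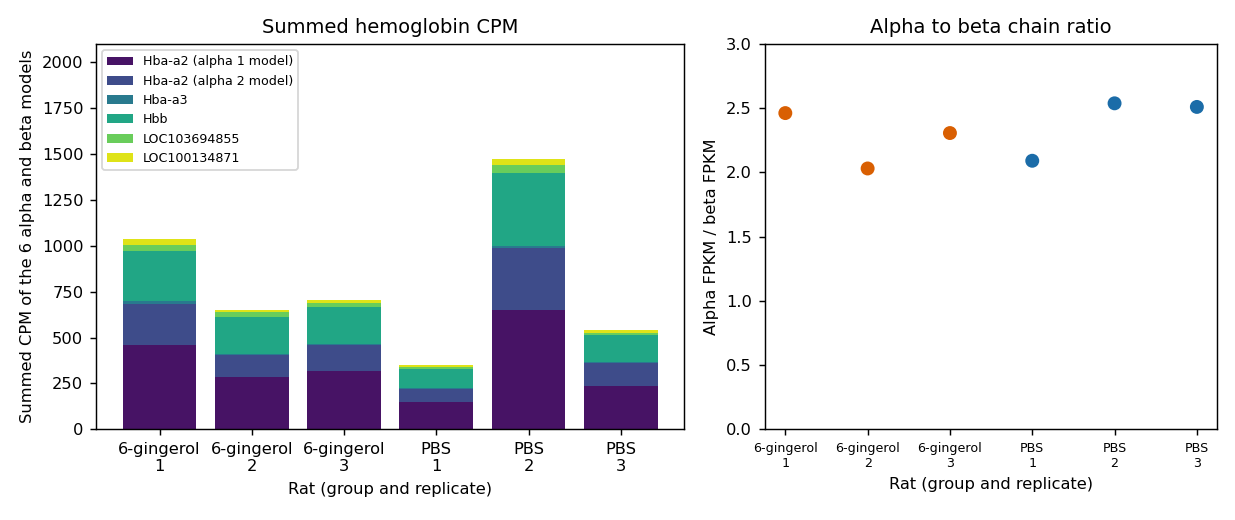
The left panel stacks the CPM of the 6 alpha and beta models for each rat, and the right panel plots the ratio of summed alpha to summed beta FPKM. SAH + PBS replicate 2 stands highest and SAH + PBS replicate 1 lowest in the sum, whereas the alpha to beta ratio stays between 2.03 and 2.54 in all 6 rats. Both panels leave out the 2 beta-globin models outside the rule.

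The make-up of the hemoglobin reads varied less between rats than their sum. Shares are given of the counts of the 7 hemoglobin models under the rule. The alpha 1 model held 42.5% to 45.1% in every rat, Hbb 26.4% to 30.5% and the alpha 2 model 18.3% to 22.8%. LOC103694855 held 2.91% to 4.16%, LOC100134871 2.12% to 2.97% and Hba-a3 0.924% to 1.25%. The ratio of summed alpha to summed beta FPKM was 2.27 ± 0.218 with 6-gingerol and 2.38 ± 0.250 with PBS (SD, n = 3 each), and the groups overlapped. Its beta sum leaves out 2 further beta-globin models, described below, and the ratio would be lower with them. Across the 6 rats the 6 alpha and beta models tracked each other, with Pearson r of log2(CPM + 1) from 0.932 to 0.993 over 15 pairs. These r describe 6 libraries, and copies that share reads share part of them.

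Among the alpha chains, the alpha 1 model had 461, 285 and 318 CPM under 6-gingerol against 149, 652 and 238 CPM under PBS, each in the order of replicates 1, 2 and 3. The groups overlapped, with SAH + PBS replicate 2 above and the other SAH + PBS rats below every treated rat. Its log2 fold change, SAH + 6-gingerol over SAH + PBS, was 0.04 (standard error, SE, 0.54, 95% interval -1.25 to 1.32, adjusted p = 0.976 from edgeR's quasi-likelihood test). The alpha 2 model had 224, 120 and 140 CPM under 6-gingerol against 70.6, 335 and 121 CPM under PBS. Here SAH + PBS replicate 3 was also level with SAH + 6-gingerol replicate 2, and the log2 fold change was -0.12 (SE 0.57, adjusted p = 0.921 from edgeR). Hba-a3, a minor alpha chain copy, had 12.9, 6.82 and 6.52 CPM under 6-gingerol against 3.49, 14.8 and 6.62 CPM under PBS. Its groups overlapped too, with a log2 fold change of 0.08 (adjusted p = 0.947 from edgeR). The theta chain AC096051.1, a globin of unsettled role in the alpha cluster, had 9, 9 and 19 counts with 6-gingerol and 0, 14 and 10 counts with PBS. The 0 in SAH + PBS replicate 1 allows up to 3 counts, or 0.0441 CPM, and no difference could be read at this depth (log2 fold change 0.75, 95% interval -1.90 to 3.40).

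Among the beta chains, Hbb had 273, 199 and 202 CPM in SAH + 6-gingerol replicates 1, 2 and 3 and 107, 394 and 146 CPM in SAH + PBS replicates 1, 2 and 3. The order of the rats was that of the alpha 1 model. Its log2 fold change was 0.06 (SE 0.48, 95% interval -1.10 to 1.22, adjusted p = 0.954 from edgeR), so a change of up to about 2-fold in either direction lies within the interval. LOC103694855, described in the files as beta-2-like, had 33.8, 27.1 and 21.2 CPM under 6-gingerol against 11.1, 45.2 and 15.7 CPM under PBS. LOC100134871, described as the beta-2 chain, had 30.8, 15.8 and 17.0 CPM under 6-gingerol against 9.02, 31.1 and 12.04 CPM under PBS. In both, SAH + PBS replicate 2 was highest and SAH + PBS replicate 1 lowest, and the log2 fold changes were 0.19 and 0.28 (adjusted p = 0.861 and 0.785 from edgeR).

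**Figure D2:**
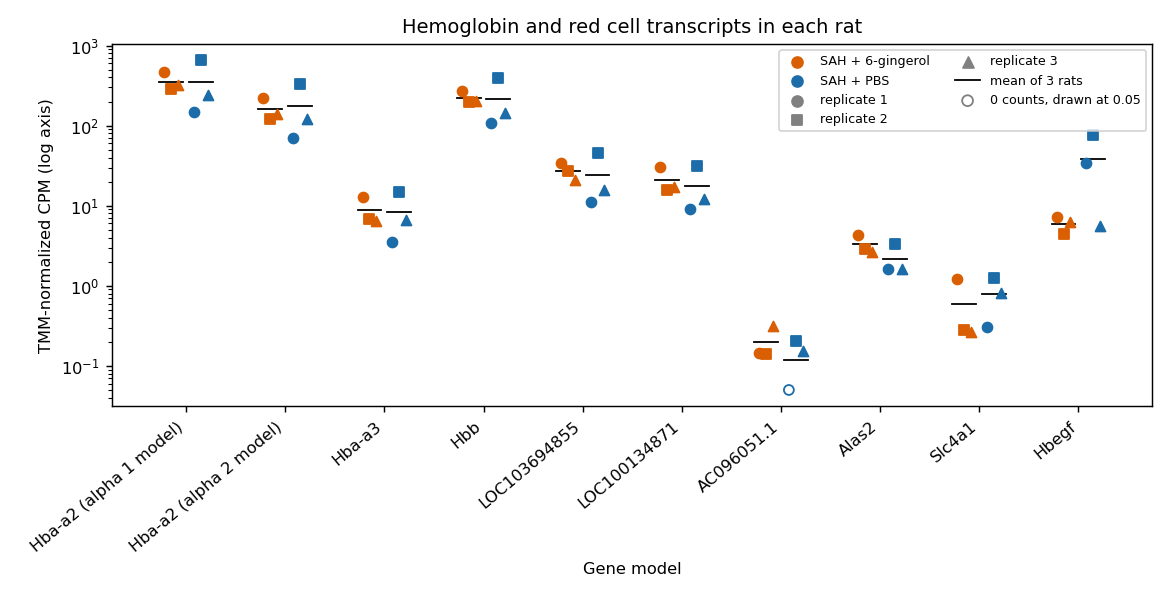
Each point is the TMM-normalized CPM of a member in 1 rat on a log axis, with the color for the group, the shape for the replicate number and a black line for the mean of 3 rats. SAH + PBS replicate 2 lies above the other SAH + PBS rats in every member, and the groups overlap in all 10.

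The rule leaves out 2 further beta-globin models whose descriptions lack the words hemoglobin subunit, both on the plus strand of chromosome 1. LOC689064, the beta globin minor gene (168957460 to 168958836), lies inside the span of LOC103694857 (168945449 to 168965566), so reads of the one may count for the other. LOC689064 had 154, 114 and 119 CPM under 6-gingerol against 60.2, 232 and 85.6 CPM under PBS. LOC103694857 had 67.1, 28.4 and 39.6 CPM under 6-gingerol against 18.8, 74.3 and 21.8 CPM under PBS. Both had the same rats at the top and the bottom as Hbb. Their log2 fold changes were 0.04 and 0.23 (adjusted p = 0.974 and 0.851 from edgeR), and 0.82 and 1.15 without SAH + PBS replicate 2 (adjusted p = 0.149 and 0.217 from edgeR). They held 16.6% to 18.4% of hemoglobin CPM when added to the sum.

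Alas2 encodes the erythroid form of the first enzyme of heme synthesis, and Slc4a1 the anion exchanger band 3 of the red cell membrane. Alas2 had 4.32, 2.86 and 2.66 CPM under 6-gingerol against 1.63, 3.30 and 1.62 CPM under PBS. Unlike the alpha and beta chains it was highest in SAH + 6-gingerol replicate 1, and SAH + PBS replicate 2 lay within the range of the treated rats. The log2 fold change was 0.59 (SE 0.39, 95% interval -0.34 to 1.51, adjusted p = 0.461 from edgeR). Per 1000 hemoglobin CPM there were 4.18, 4.38 and 3.77 CPM of Alas2 with 6-gingerol and 4.67, 2.24 and 3.01 CPM under PBS, so the rat richest in hemoglobin had the least Alas2 for it. Slc4a1 was near the limit of counting, with 76, 18 and 16 counts with 6-gingerol and 21, 86 and 54 counts with PBS. It was high in SAH + 6-gingerol replicate 1 and SAH + PBS replicates 2 and 3, and its log2 fold change was -0.44 (SE 0.79, 95% interval -2.34 to 1.47, adjusted p = 0.788 from edgeR).

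Over the 10 members, 0 passed an adjusted p under 0.05 in edgeR, where 0.0175% of all genes tested did, and 0 passed in DESeq2, where 3.7% did. At an unadjusted p under 0.05 edgeR and DESeq2 each called 1 member, Hbegf, which was lower, against 13.9% and 14.3% of all genes. Of all genes 8.71% were lower and 5.22% higher at that threshold in edgeR, and 8.88% lower and 5.39% higher in DESeq2. In 0 of 10 members were the groups free of overlap, against 27.2% of all genes. The log2 fold change was positive in 7 members and negative in 3, with a median of 0.07, where 46.9% of all genes had a positive value in edgeR and 45.7% in DESeq2. A p that misses the threshold does not show equal levels, and the intervals of the abundant chains reach beyond 2-fold in both directions. The 3 rats of a group are separate animals.

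Without SAH + PBS replicate 2 the fitted values of all 7 hemoglobin members were positive, although none passed the correction. That rat was the highest SAH + PBS rat in every member, so leaving it out raised each value. Over the 10 members 9 were positive, against 47.9% of all genes, with a median of 0.85. The edgeR log2 fold changes were then 0.88 for the alpha 1 model, 0.75 for the alpha 2 model, 0.79 for Hba-a3 and 0.83 for Hbb (standard errors 0.27, 0.33, 0.41 and 0.19). LOC103694855 had 1.03, LOC100134871 1.01, AC096051.1 1.38 and Alas2 1.01, while Slc4a1 had 0.06. In 5 members (the alpha 1 model, Hbb, LOC103694855, LOC100134871 and Alas2) all 3 treated rats were above both remaining SAH + PBS rats, which held for 17.1% of all genes. The globin models among them moved together and may share reads, so they do not count as separate results. The same 5 had a higher value at an unadjusted p under 0.05, against 8.02% of all genes, and Hbegf a lower one, against 7.53%. Their adjusted p in edgeR ran from 0.145 to 0.234, and 0 of 10 members passed an adjusted p under 0.05, where 0.524% of genes did. Leaving out other rats turned Hbb the other way, to -0.10 without SAH + 6-gingerol replicate 1, -0.26 without SAH + PBS replicate 1 and -0.16 without SAH + PBS replicate 3.

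**Figure D3:**
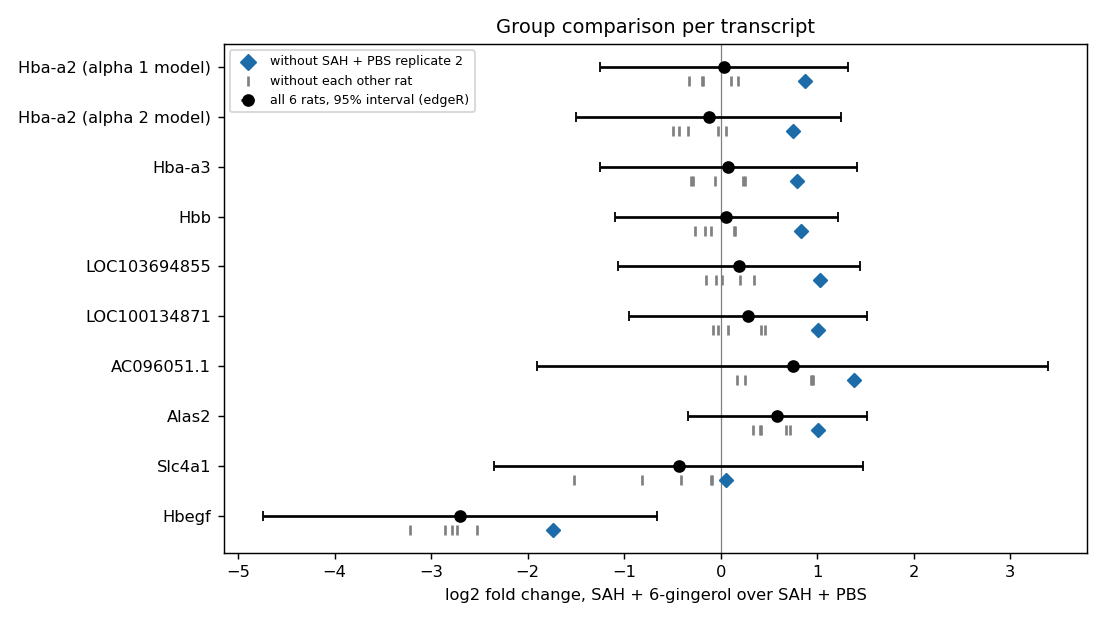
Black points are edgeR log2 fold changes over all 6 rats with 95% intervals, blue diamonds leave out SAH + PBS replicate 2 and grey ticks leave out each other rat. The intervals of 9 members include 0, and the diamonds of the globins lie to the right of 0.

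Hbegf, a membrane-bound growth factor of the EGF family that is shed by proteases, is the only member without a tie to red cells. It had 7.20, 4.38 and 6.23 CPM under 6-gingerol against 34.2, 76.4 and 5.51 CPM under PBS. SAH + PBS replicates 1 and 2 were high and SAH + PBS replicate 3 lay among the treated rats. The log2 fold change was -2.70 (SE 0.85, 95% interval -4.75 to -0.66, adjusted p = 0.347 from edgeR and 0.0803 from DESeq2), and -1.74 without SAH + PBS replicate 2. It did not follow the globins, with Pearson r of 0.175 to 0.301 against the 6 alpha and beta models over the 6 rats.

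The spread of the globins between rats of a group was wide. The pooled within-group SD of log2(CPM + 1) was 0.81 for the alpha 1 model, 0.87 for the alpha 2 model and 0.72 for Hbb, against a median of 0.23 over the 14799 tested genes that averaged 1 CPM or more. Of those genes, 94.5% to 96.6% had a smaller spread than the 6 alpha and beta models. Alas2, at 0.36, was less extreme, with 73.9% of genes below it. Much of this spread came with SAH + PBS replicate 2. Without it the SD was 0.41 for the alpha 1 model, 0.49 for the alpha 2 model and 0.28 for Hbb, against a median of 0.14 over the same genes, and 84.7% to 96.4% of those genes had a smaller spread than the 6 alpha and beta models.

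Other genes of the red cell lineage were read from lists. Of 15 genes of heme synthesis, all measured, 0 passed the correction in either direction, and the median log2 fold change was 0.08, against -0.03 over all genes tested, and turned to -0.04 without SAH + PBS replicate 2. The smallest p were those of Abcb10, a mitochondrial transporter (41.0 ± 1.45 CPM under 6-gingerol against 32.9 ± 3.11 CPM under PBS), Slc25a38, a glycine carrier of mitochondria (23.9 ± 2.34 and 30.05 ± 2.71 CPM), and Alas1, the form of the first enzyme made in all tissues (42.9 ± 1.41 and 36.1 ± 3.996 CPM, SD, n = 3 each). Their adjusted p in edgeR were 0.349 to 0.386. The groups were free of overlap in these 3 of the 15 genes, against 27.2% of all genes.

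Of 22 genes of the red cell membrane and skeleton 17 were tested and 0 passed, with a median log2 fold change of 0.19 (0.13 without SAH + PBS replicate 2). Several of these are also made by brain cells, such as Slc14a1, a urea transporter (36.6 ± 4.73 CPM under 6-gingerol against 59.7 ± 7.85 CPM under PBS), and Aqp1, a water channel of the choroid plexus as well (7.95 ± 0.994 and 21.1 ± 10.7 CPM, SD, n = 3 each). Both were lower with 6-gingerol (adjusted p = 0.334 and 0.343 from edgeR), whereas 11 of the 17 had a positive log2 fold change. The groups were free of overlap in 9 of the 17, 4 higher and 5 lower with 6-gingerol, against 27.2% of all genes. Rhag, the Rh-associated glycoprotein of red cells, had 12 counts over the 6 rats and was not tested.

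Of 22 red cell enzymes and late erythroid genes 17 were tested and 0 passed, with a median of 0.11 (0.07 without SAH + PBS replicate 2). Bpgm, which makes the 2,3-bisphosphoglycerate of red cells, had 84.1 ± 0.772 CPM under 6-gingerol against 70.3 ± 6.96 CPM under PBS. Ube2o, a ubiquitin ligase of reticulocyte maturation, had 172 ± 9.69 and 144 ± 20.2 CPM (SD, n = 3 each). Rsad2, which is better known as an antiviral interferon target, had 6.00 ± 2.15 and 21.4 ± 10.8 CPM. Their adjusted p in edgeR were 0.338 to 0.399. Ahsp, the chaperone of free alpha chains in red cell precursors, was named after its values were seen. It had 110, 41 and 39 counts with 6-gingerol and 34, 36 and 8 counts with PBS, and in CPM the groups did not overlap (log2 fold change 1.40, SE 0.70, adjusted p = 0.392 from edgeR, and 1.70 without SAH + PBS replicate 2). The lowest treated rat had 0.637 CPM and the highest SAH + PBS rat 0.523 CPM. In this list 5 of the 17 genes tested were free of overlap, against 27.2% of all genes. SAH + PBS replicate 2, with 4.21 times the hemoglobin CPM of SAH + PBS replicate 1, had 1.04 times its Ahsp CPM.

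Among erythroid transcription factors, Gata1, the main factor of red cell precursors, had 2 counts over the 6 rats and was not tested, and 0 of the 10 factors tested of 12 passed, with a median of -0.28 (-0.09 without SAH + PBS replicate 2). Those of smallest p were Lmo2, a partner of Tal1 in blood and endothelium (10.2 ± 2.12 CPM under 6-gingerol against 19.9 ± 9.45 CPM under PBS), Bcl11a, a repressor of fetal globin that neurons also make (71.6 ± 6.71 and 50.7 ± 15.3 CPM), and Lyl1 (2.84 ± 0.702 and 3.95 ± 0.852 CPM, SD, n = 3 each), at adjusted p of 0.348 to 0.436 in edgeR. Globins made by brain cells themselves were listed as well, and 0 of the 3 tested passed, with a median of 0.15 that turned to -0.05 without SAH + PBS replicate 2. Ngb, the neuronal neuroglobin, had 17.4, 20.2 and 9.83 CPM under 6-gingerol against 9.02, 3.91 and 10.2 CPM under PBS (log2 fold change 1.04, adjusted p = 0.358 from edgeR, and 0.72 without SAH + PBS replicate 2). Cygb, the cytoglobin of fibroblast-like cells and some neurons, had 55.6, 58.1 and 52.0 CPM under 6-gingerol against 57.9, 34.6 and 56.8 CPM under PBS. Adgb, androglobin, had 1.13 to 3.0 CPM. All 3 were lowest in SAH + PBS replicate 2, the rat highest in hemoglobin.

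Heme oxygenase 1 (Hmox1), the inducible enzyme that breaks down heme, had 5.91, 5.36 and 6.84 CPM under 6-gingerol against 92.5, 417 and 17.3 CPM under PBS (log2 fold change -4.86, SE 1.13, adjusted p = 0.338 from edgeR, and -3.18 without SAH + PBS replicate 2). Its groups did not overlap, while SAH + PBS replicate 1, second highest in Hmox1, was the lowest rat in hemoglobin. Cd163, the scavenger receptor for haptoglobin bound to hemoglobin, had 5.32, 2.81 and 3.98 CPM under 6-gingerol against 5.12, 17.8 and 11.8 CPM under PBS. Hpx, the heme carrier hemopexin, had 0.223 to 0.466 CPM under 6-gingerol against 0.647, 11.5 and 0.742 CPM under PBS. In that list of uptake and clearance genes 0 of 13 tested passed, with a median of -0.30 (-0.19 without SAH + PBS replicate 2). The groups were free of overlap in 5 of the 13, 2 higher and 3 lower with 6-gingerol, against 27.2% of all genes.

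**Figure D4:**
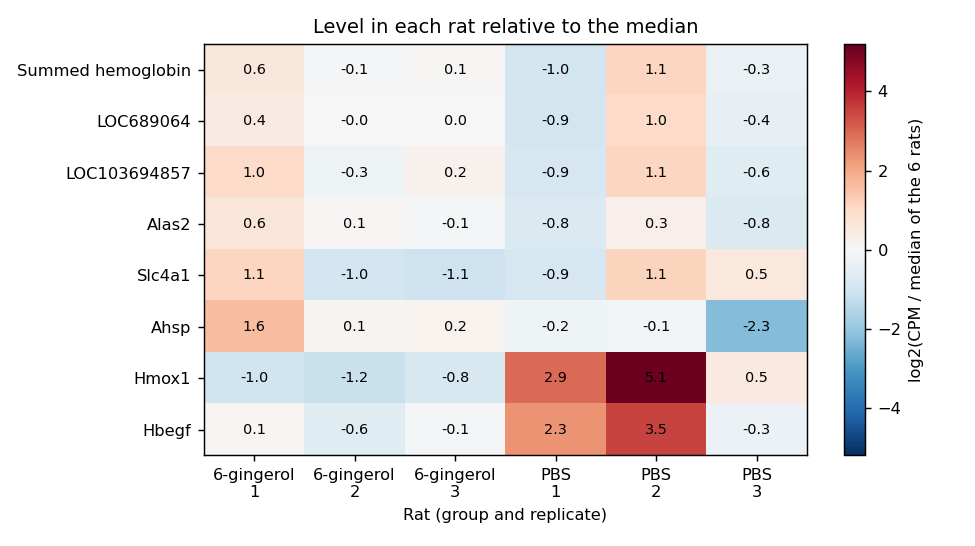
Colors and numbers give log2 of the CPM in each rat over the median of the 6 rats, for the summed hemoglobin, the further beta-globin models and related genes. Hemoglobin and both beta-globin models share their highest and lowest rat, whereas Hmox1 and Hbegf are high in SAH + PBS replicates 1 and 2.

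Markers of other cells that blood or adjoining tissue could bring moved with some of the same rats. The summed level of 14 neutrophil markers ran from 60.0 to 66.1 CPM under 6-gingerol against 82.7 to 488 CPM under PBS, with SAH + PBS replicate 2 the highest. Lyz2 made up most of the sum in the treated rats. It had 58.3, 51.2 and 53.5 CPM under 6-gingerol against 46.5, 243 and 72.2 CPM under PBS, so SAH + PBS replicate 1 was the lowest rat in Lyz2. Of the granule genes too low to test, Mpo had 15 and Elane 5 counts over the 6 rats, Camp 30, Ngp 41 and Mmp8 319, and the receptor Cxcr2 had 168. Of the markers 0 of the 7 tested passed (median -3.91, and -1.93 without SAH + PBS replicate 2). In 4 of the 7 the groups did not overlap, all lower with 6-gingerol, against 27.2% of all genes. Lcn2, lipocalin 2, had 0.490 ± 0.485 CPM under 6-gingerol against 33.3 ± 34.8 CPM under PBS. Mmp9, a matrix protease, had 3.24 ± 0.299 and 48.7 ± 63.2 CPM, and S100a9, a calcium-binding alarmin, 0.222 ± 0.159 and 7.05 ± 10.4 CPM (SD, n = 3 each). Which cells made these transcripts, neutrophils or cells of the brain itself, was not tested. Platelet markers summed to 5.25 to 6.59 CPM under 6-gingerol against 4.84 to 16.6 CPM under PBS over 12 genes, among them Pf4, Itga2b and Itgb3. In SAH + PBS replicate 2, Pf4 had 3.57 CPM and Itgb3 7.81 CPM, which made up most of that sum, and 3 of the 7 platelet markers tested were highest in that rat while Gp5, Gp1bb, Gp1ba and Treml1 were not. T and B cell markers summed to 9.01 to 12.4 CPM and 8.41 to 16.9 CPM over 12 genes, and Cd3e, a chain of the T cell receptor, had 31 counts over the 6 rats. The median log2 fold change was 0.17 over the platelet markers and -0.66 over the 4 T and B cell markers tested, and 0.19 and 0.28 without SAH + PBS replicate 2.

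Endothelial markers summed to 253 to 262 CPM under 6-gingerol against 229 to 479 CPM under PBS over 8 genes, and those of meninges and fibroblasts to 1331 to 1913 CPM and 817 to 2453 CPM over 10 genes. Their median log2 fold changes were -0.66 and 0.14, and 0.27 and 0.66 without SAH + PBS replicate 2. In both sums SAH + PBS replicate 1 was lowest and SAH + PBS replicate 2 highest, as in hemoglobin. By gene, SAH + PBS replicate 2 was highest in 6 of 7 endothelial markers tested and in 6 of 10 of meninges and fibroblasts. The endothelial Slco1a4 (15.3 CPM) and Slc22a6 of the other list (3.15 CPM) were lowest of all 6 rats there. Ptgds alone gave 1641 CPM of the meninges and fibroblast sum in SAH + PBS replicate 2 and 512 CPM in SAH + PBS replicate 1. The summed choroid plexus and ependyma markers had another order of rats, at 17.0 to 23.6 CPM under 6-gingerol against 1160, 39.2 and 348 CPM in SAH + PBS replicates 1, 2 and 3 (median log2 fold change -1.67, and -2.20 without SAH + PBS replicate 2). Ttr gave most of the sum in SAH + PBS replicates 1 and 3 (1048 and 300 CPM), and Aqp1 in SAH + PBS replicate 2 (32.1 CPM). In SAH + PBS replicate 2, Ttr and Clic6 had 0.610 and 0.987 CPM, against 0.435 to 3.51 and 0.535 to 0.954 CPM under 6-gingerol. Ccdc153 and Tmem212 of the same list had log2 fold changes of -0.10 and -0.13, and their groups overlapped. None of the genes tested in these lists passed the correction over all rats, and without SAH + PBS replicate 2 the 3 that passed were in the choroid plexus list. Of the 11 neuron markers 0 passed, with a median log2 fold change of 0.59 (0.38 without SAH + PBS replicate 2). All 11 had a positive value, and in 9 the groups did not overlap, all higher with 6-gingerol, against 27.2% of all genes. Their sum ran from 10816 to 11126 CPM under 6-gingerol against 7649, 4425 and 8567 CPM in SAH + PBS replicates 1, 2 and 3. The part of these cells in the hemoglobin values was not tested.

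Outside the members, the 10 genes whose log2(CPM + 1) was most like that of summed hemoglobin over the 6 rats were sought among 14791 tested genes that averaged 1 CPM or more. The first was LOC689064, the beta-globin model described above, at Pearson r = 0.995, the only gene above 0.99. The others were AABR07065625.1, Hes7, Tns1, Tceal8, Tmub1, Itgae, Tfap2b, Wdr5b and Acta2, at r of 0.971 to 0.984. Of these, AABR07065625.1, Tfap2b, a transcription factor, and Acta2, the actin of smooth muscle, differed between SAH + PBS replicates 2 and 1 about as much as hemoglobin, by 4.54, 4.45 and 4.48 times. Acta2 had 33.0, 20.5 and 23.3 CPM under 6-gingerol against 8.24, 36.9 and 14.4 CPM under PBS. These r are a description of 6 libraries, SAH + PBS replicate 2 among them.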

How the data were processed

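RNA of the basal temporal lobe of 6 rats was sequenced, 1 library per rat. The authors deposited raw counts per gene and, in a second table, FPKM, on Rnor_6.0. The submitters' processing notes name HISAT2 2.1.0, StringTie 1.3.3b and limma 3.32.10 without roles, while the study's methods name STAR and DESeq2. Which counter was used, with what strand and how it treated reads shared by gene copies, is not given in the sources used here, so reads of overlapping or near-identical globin models cannot be told apart. The FPKM follow from the counts with 1 length per gene, to within 0.00961% over 13995 genes.

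Samples were grouped by their titles, to which all value columns could be assigned. Counts were fitted over all genes with edgeR 4.0.16 in R 4.3.3 (filterByExpr with a minimum count of 10 and a minimum total of 15, TMM, glmQLFit and glmQLFTest, no block), with Benjamini-Hochberg adjustment over the genes tested. Standard errors are the log2 fold change over the square root of F. The script was tested on simulated data. Alternatives were DESeq2 1.42.0, limma-voom, RLE factors or library totals in place of TMM, limma 3.58.1 on log2(FPKM + 1) and log2(FPKM + 0.1), other filters, a replicate block, models of 1 symbol summed and each rat left out. The sum with the further beta-globin models and the list medians and within-group spread without SAH + PBS replicate 2 were added after seeing the data. Promoters were aligned with Biopython 1.88.

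The members and lists were chosen with earlier results of these data known. Named are all members, the 3 list genes of smallest p with a mean of at least 1 CPM in each list described by gene and the 10 genes most like hemoglobin. A gene that the rule names is not reported here. Others, such as Ahsp, LOC103694857, Rhag, Gata1, Mpo, Elane, Camp, Ngp, Mmp8, Cxcr2, Gp5, Gp1bb, Gp1ba, Treml1 and Cd3e, were chosen after their values were seen. The same holds for Lyz2, Slco1a4, Slc22a6, Ptgds, Ttr, Clic6, Ccdc153 and Tmem212.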

Additional observations from a re-analysis of the deposited data

How the results depend on the processing

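No member passed an adjusted p under 0.05 in any of 17 alternative settings, and 138 of 163 member values under the alternatives kept their direction while 25 turned, none of them past the threshold. Scaling by library totals, which moved the median log2 fold change of all genes from -0.03 to -0.15, gave -0.057 for Hba-a3, -0.079 for Hbb and -0.10 for the alpha 1 model. Summing models of the same symbol gave -0.015 for the alpha 1 and alpha 2 models together. The alpha 2 model turned to 0.13 with limma-voom, 0.14 with the replicate block, 0.012 on log2(FPKM + 1) with or without the filter and 0.013 on log2(FPKM + 0.1). Leaving out each rat gave -0.083 to 1.01 for LOC100134871, -0.31 to 0.79 for Hba-a3, -0.15 to 1.03 for LOC103694855, -0.26 to 0.83 for Hbb, -1.52 to 0.056 for Slc4a1, -0.32 to 0.88 for the alpha 1 model and -0.50 to 0.75 for the alpha 2 model, with the highest value of each without SAH + PBS replicate 2. Alas2 and Hbegf kept their direction in all 17 settings. The ratio of summed hemoglobin went from 0.794 to 1.80 with a rat left out and from 0.920 to 1.02 otherwise, and members without overlap from 0 to 5.

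Over all genes, the 3 calls at an adjusted p under 0.05 became 663 in DESeq2, 5 on log2(FPKM + 0.1), 0 with at least 1 CPM in every library, 0 with the replicate block and 0 to 91 with a rat left out, the most without SAH + PBS replicate 2. No pairing by replicate number was seen, with deviations of same-numbered rats correlated at -0.05, -0.02 and -0.0044. With 3 rats per group these values cannot show that no pairing exists. AC096051.1 and Slc4a1 gave no value under the filters of 1 CPM and of FPKM. Counts of 0 to 19 (AC096051.1) and 16 to 86 (Slc4a1) limit those models.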
